A study of Mus musculus with 9 samples.

Results

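Cdsn, Sprr1a, 5 keratins (Krt7, Krt8, Krt14, Krt18 and Krt19) and the desmosome genes Dsp and Jup were followed across 9 RNA-seq libraries of cultured fibroblasts. These 9 epidermal and epithelial genes, of 53465 in the count table, were found there by their GRCm38 symbols. The set was selected on the measured 24 h changes of Cdsn and Sprr1a, which went in opposite directions, so the 24 h comparison of these genes is a description with no test. For Cdsn and Sprr1a the controls served that choice as well, and their 72 h values are likewise described with no test.

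The libraries were made from total RNA of mouse adult fibroblasts, 3 from cells given DPI for 24 h, 3 from cells given DPI for 72 h and 3 from controls. Given that the series concerns FMN cofactor targeting, DPI was read as diphenyleneiodonium, which inhibits flavin enzymes. No genotype, mouse strain, donor age or dose is stated, nor when the controls were collected and whether they received a vehicle, so time in culture and DPI cannot be told apart. Nothing states that replicates were cultured apart, and the spread behind each p-value may therefore be technical.

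The cornified envelope is the cross-linked protein shell that replaces the plasma membrane of a keratinocyte at the skin surface. Sprr1a encodes a small proline-rich protein cross-linked into that shell, and is also known as a gene induced in injured neurons. Cdsn encodes corneodesmosin, an adhesive glycoprotein of the modified desmosomes that hold cornified cells together. Keratins are intermediate filament proteins that assemble from a type I and a type II partner and are anchored at desmosomes through desmoplakin (Dsp) and plakoglobin (Jup). Fibroblasts are known to build their intermediate filaments mainly from vimentin.

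The upstream sequences of Sprr1a and Cdsn are shown because these genes moved in opposite directions. That of Jup is shown because its log2 CPM had a Pearson r of 0.94 with that of Sprr1a over the 9 libraries. Each is the 250 bases before the RefSeq gene start (GRCm38.p6), 5′ to 3′ on the gene's own strand. Capitals mark matches, on either strand, to 4 motifs, which are TGANTCA of the factor AP-1, TATAAA of the core promoter, TTCNNNGAA of the STAT factors and GGGCGG of the Sp and Klf factors. The Sprr1a window is chr3:92485882-92486131 on the minus strand, the Cdsn window chr17:35551878-35552127 on the plus strand and the Jup window chr11:100397791-100398040 on the minus strand.
Sprr1a: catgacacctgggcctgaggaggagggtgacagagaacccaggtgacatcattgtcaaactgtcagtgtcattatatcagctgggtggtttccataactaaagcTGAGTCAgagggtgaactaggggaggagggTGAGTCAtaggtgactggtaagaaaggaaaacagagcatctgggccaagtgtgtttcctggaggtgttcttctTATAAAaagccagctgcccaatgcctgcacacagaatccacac
Cdsn: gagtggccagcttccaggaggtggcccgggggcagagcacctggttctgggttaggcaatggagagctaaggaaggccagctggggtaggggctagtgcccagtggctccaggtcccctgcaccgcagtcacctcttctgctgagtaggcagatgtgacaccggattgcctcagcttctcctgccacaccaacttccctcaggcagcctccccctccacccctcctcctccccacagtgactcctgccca
Jup: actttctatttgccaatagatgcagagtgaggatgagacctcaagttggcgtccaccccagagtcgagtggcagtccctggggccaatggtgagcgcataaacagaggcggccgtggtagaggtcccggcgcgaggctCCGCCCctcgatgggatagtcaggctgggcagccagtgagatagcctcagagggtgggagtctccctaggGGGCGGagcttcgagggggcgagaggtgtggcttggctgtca

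The Sprr1a window held the AP-1 letters at positions -146 to -140 and -116 to -110, where -1 is the base before the gene start, and TATAAA at -43 to -38. No match overlapped another. Among 32851 mouse windows of the same length, 6.75% held the AP-1 letters at least once, 0.338% held them 2 or more times and 12.4% held TATAAA. No match to the 4 motifs was found in the printed Cdsn window. A further RefSeq window of Cdsn, 9027 bases from the GENCODE gene start and not printed, held the STAT letters at -160 to -152, as 7.02% of all windows did at least once. The Jup window held the Sp/Klf letters at -112 to -107 and -42 to -37, and 16.7% of all windows held these letters 2 or more times. A match describes the letters of a window and says nothing of binding. RefSeq windows were matched for 8 of the 9 genes. Those of Cdsn, Sprr1a, Dsp and Jup that end within 27 bases of the GENCODE gene start were read, as was the further Cdsn window. The Dsp window, not printed, held the Sp/Klf letters at -137 to -132, -102 to -97, -80 to -75 and -45 to -40.

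Total counts ran from 15292736 to 17923656 per library. Among the controls, replicate 2 was the outlying library on the second principal component (44.2, against 14.1 and 18.0 for replicates 1 and 3). Of the transcripts that go with the label of fibroblast, Col1a1 and Vim were among the high ones. Col1a1 averaged 4170 CPM in DPI 24 h cells, 3500 CPM in DPI 72 h cells and 1710 CPM in controls. Vim averaged 1940 CPM in DPI 24 h cells, 2430 CPM in DPI 72 h cells and 1640 CPM in controls. Over the 9 libraries Fn1 had 411721 counts, Col1a2 406779, S100a4 94312, Ddr2 54658 and Prrx1 35701. Some other markers were low. Of the 16 fibroblast markers examined, Thy1 had 2 counts over the 9 libraries, Lum 4 and Fap 12. The collagen gene Col3a1 had 506 counts over the 9 libraries and Dcn 299.

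Sprr1a (ENSMUSG00000050359) was high after 24 h of DPI. Its level, in TMM-scaled CPM (reads of the gene relative to the library's total), was 62.1, 63.8 and 64.4 CPM in DPI 24 h cells, 24.8, 21.3 and 23.4 CPM in DPI 72 h cells, and 6.69, 6.51 and 9.15 CPM in controls. The 3 groups did not overlap, with the 24 h libraries highest and the controls lowest. The difference at 24 h was 8.55-fold, a log2 change of 3.10 ± 0.12 (SE). The 72 h mean was 3.12-fold above the control mean, a log2 change of 1.64 ± 0.12. It stood 2.74-fold under the 24 h mean, a log2 difference of -1.45 ± 0.10.

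Cdsn (ENSMUSG00000039518) showed the opposite picture at 24 h. It stood at 6.18, 7.43 and 6.26 CPM in DPI 24 h cells, at 116, 93.9 and 113 CPM in DPI 72 h cells, and at 153, 159 and 177 CPM in controls. The groups again did not overlap, and every 24 h library lay far under all others. The 24 h mean was 24.6-fold lower than the control mean, a log2 change of -4.62 ± 0.12 (SE). At 72 h most of that distance was gone: the 72 h mean was 16.3-fold above the 24 h mean, a log2 difference of 4.02 ± 0.12. The 72 h mean was still 1.51-fold under the control mean (log2 change -0.60 ± 0.09), with all 3 treated libraries under all 3 controls. In bulk RNA, fewer cells that express a gene and less of its RNA per cell cannot be told apart.

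**Figure D1:**
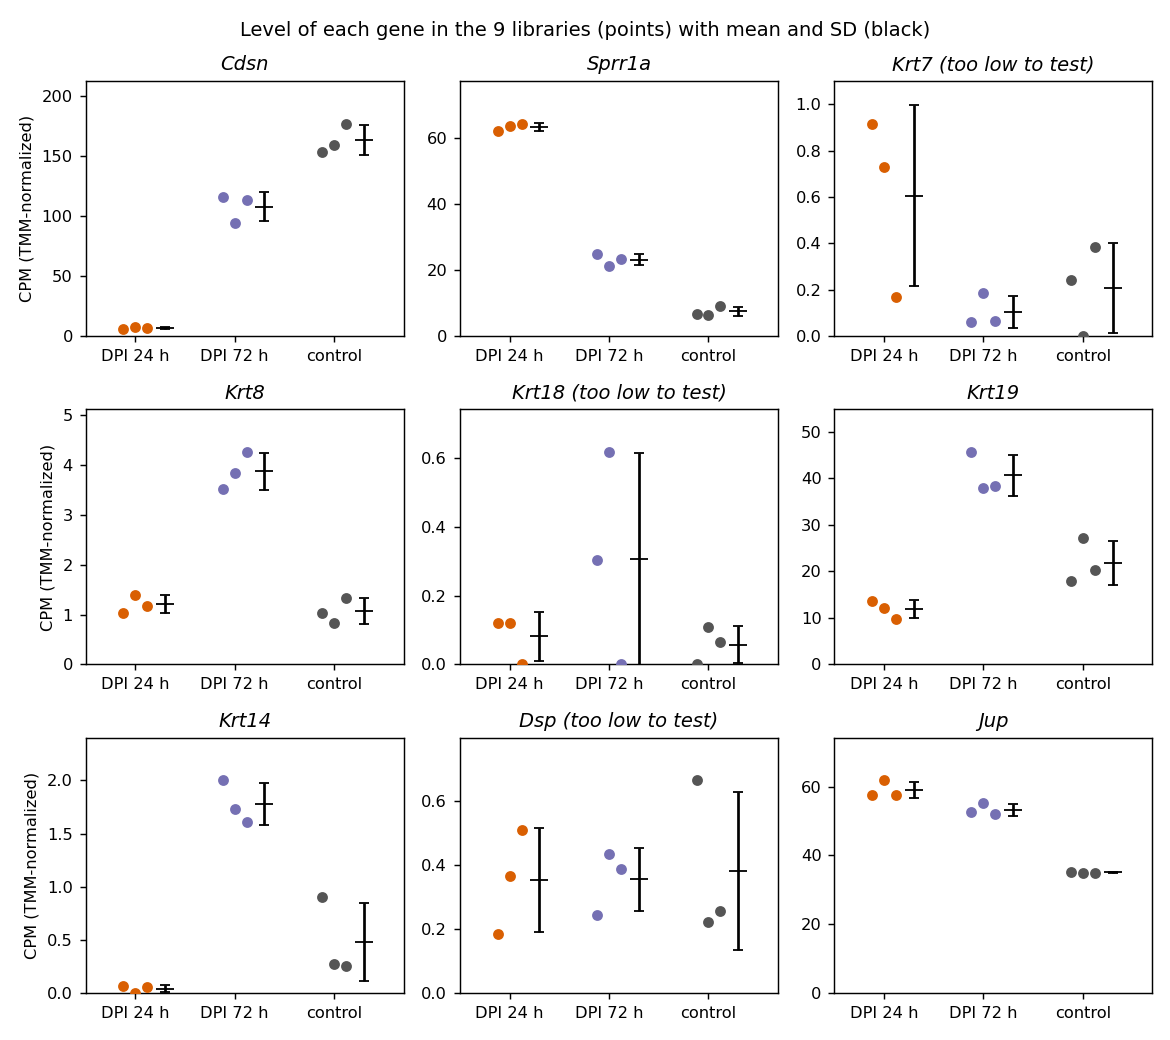
Level of each of the 9 genes in TMM-normalized CPM (y axis, linear, from 0) in the DPI 24 h, DPI 72 h and control libraries (points), with the group mean and SD in black. Cdsn is lowest and Sprr1a highest at 24 h, Krt8, Krt19 and Krt14 are highest at 72 h, Jup is higher in both DPI groups than in controls, and Krt7, Krt18 and Dsp stay under 1 CPM.

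Set against each other per exonic length (RPKM), Cdsn and Sprr1a changed places. The Cdsn to Sprr1a ratio was 0.0299, 0.035 and 0.0292 in DPI 24 h cells, 1.41, 1.33 and 1.45 in DPI 72 h cells, and 6.88, 7.36 and 5.83 in controls. Sprr1a was the more abundant transcript of the pair at 24 h and the less abundant one in the other groups. Across the 9 libraries, which form 3 groups, their log2 CPM values had a Pearson r of -0.89, given as a description.

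Jup encodes plakoglobin, which links cadherins to the cytoskeleton in desmosomes and in adherens junctions. It had 57.6, 61.8 and 57.6 CPM in DPI 24 h cells, 52.5, 55.2 and 51.9 CPM in DPI 72 h cells, and 35.2, 34.9 and 35.0 CPM in controls. The controls were nearly equal and lay under all 6 treated libraries. The log2 change was 0.75 ± 0.06 (SE) at 24 h, and Jup rose at 72 h by 0.60 ± 0.06 (edgeR quasi-likelihood test, adjusted p = 0.00012). Between the treated groups the difference was -0.15 ± 0.06 for 72 h against 24 h, which did not pass (edgeR adjusted p = 0.11, range 0.0472 to 0.378 over the alternatives) except without control replicate 2 (adjusted p = 0.0472). The log2 CPM of Jup and Sprr1a had a Pearson r of 0.94 over the 9 libraries, a description again.

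Dsp, the desmoplakin gene that ties filaments to the junction, was barely read. It had 3, 6 and 9 counts in DPI 24 h cells, 4, 7 and 6 counts in DPI 72 h cells, and 11, 4 and 4 counts in controls. The groups overlapped and the gene did not pass the filter on low counts, so it was not tested.

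Krt19, a type I keratin of simple and ductal epithelia, was the most abundant keratin of the set. It had 13.6, 12.2 and 9.87 CPM in DPI 24 h cells, 45.7, 37.9 and 38.4 CPM in DPI 72 h cells, and 18.0, 27.1 and 20.4 CPM in controls. The 24 h libraries were lowest, the 72 h libraries highest, and no groups overlapped. The log2 change was -0.88 ± 0.16 (SE) at 24 h. Krt19 rose at 72 h against control by 0.89 ± 0.15 (edgeR adjusted p = 0.00378) and at 72 h against 24 h by 1.78 ± 0.16 (edgeR adjusted p = 2.26e-05).

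Krt8, a type II keratin of simple epithelia, was high in the 72 h libraries. It had 1.04, 1.40 and 1.18 CPM in DPI 24 h cells, 3.52, 3.83 and 4.26 CPM in DPI 72 h cells, and 1.03, 0.827 and 1.34 CPM in controls. The 24 h libraries and the controls overlapped, with a log2 difference of 0.19 ± 0.29 (SE). Krt8 rose 3.63-fold at 72 h against control (log2 1.86 ± 0.28, edgeR adjusted p = 0.0017) and 3.19-fold at 72 h against 24 h (log2 1.67 ± 0.28, edgeR adjusted p = 0.00151).

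Krt14, the type I keratin of basal keratinocytes, was read at low counts. It had 1, 0 and 1 counts in DPI 24 h cells, 33, 28 and 25 counts in DPI 72 h cells, and 15, 5 and 4 counts in controls. No groups overlapped, yet the gene passed the filter on low counts only through its 72 h libraries, so its difference from the other groups was a condition of being tested and is given without a test. The ratio of its 24 h to its control counts, scaled for depth, was 0.0831 (95% interval 0.00952 to 0.335, counting error only). The 72 h to 24 h ratio was 45.1 (12.1 to 378) and the 72 h to control ratio 3.75 (2.36 to 6.16). The fitted log2 change at 72 h against control was 1.88 ± 0.54 (SE), and 2.71 without control replicate 1.

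Krt7 and Krt18, further keratins of simple epithelia, lie with Krt8 on chromosome 15, as Krt14, Krt19 and Jup lie on chromosome 11, and both were close to the floor. Krt7 had 15, 12 and 3 counts in DPI 24 h cells, 1, 3 and 1 counts in DPI 72 h cells, and 4, 0 and 6 counts in controls. Krt18, the usual type I partner of Krt8, had 2, 2 and 0 counts in DPI 24 h cells, 5, 10 and 0 counts in DPI 72 h cells, and 0, 2 and 1 counts in controls. In both genes the groups overlapped. Neither passed the filter on low counts. Scaled for depth, the 72 h to 24 h count ratio of Krt7 was 0.175 (95% interval 0.0529 to 0.455, counting error only), with its 24 h reads mostly in 2 of the 3 libraries. The same ratio for Krt18 was 3.93 (1.25 to 16.3, counting error only), with 0 counts in DPI 72 h replicate 3.

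Of the 9 genes, 6 passed the filter on low counts. At 72 h against control, 8.56% of all 14088 genes tested passed the threshold of adjusted p 0.05, with 4.73% higher and 3.83% lower. Krt8, Krt19 and Jup rose in that comparison. The 72 h libraries were not used to choose the genes, but the controls were. At 72 h against 24 h, 21.3% of all genes passed, 10.1% higher, and Krt8 and Krt19 rose there. Cdsn, Sprr1a and Krt14 are left out of these calls, for the reasons given. At 24 h against control, 24.7% of genes passed, 12.4% higher and 12.3% lower. These shares are set down only as background, also for the list counts below. Groups of 3 libraries did not overlap in 40.5% of all genes at 24 h against control, in 27.1% at 72 h against control and in 46.2% at 72 h against 24 h, so a lack of overlap was common.

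**Figure D2:**
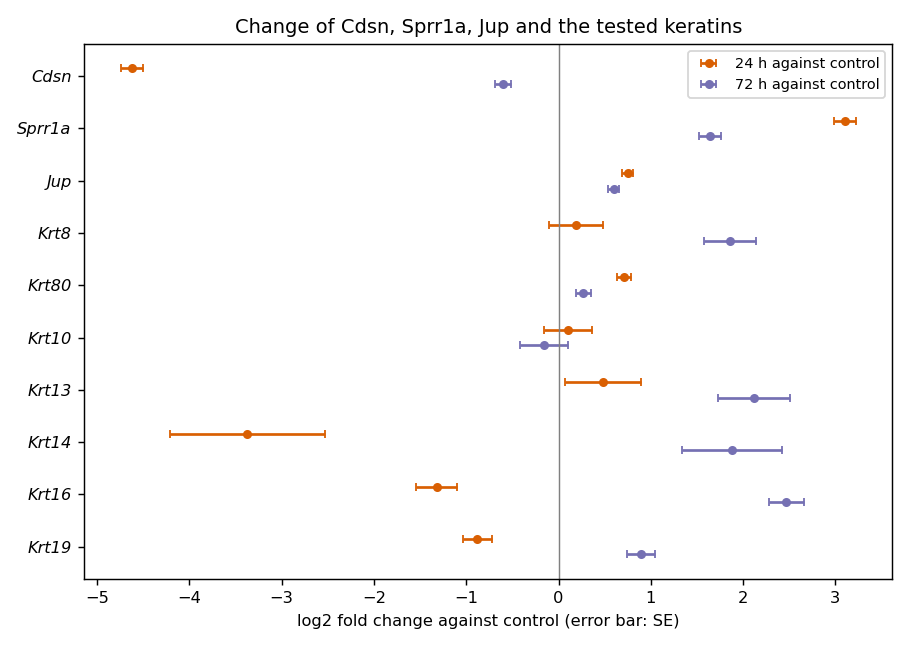
Log2 fold change against control (x axis, bars are SE) of Cdsn, Sprr1a, Jup and the 7 tested keratins, for DPI 24 h (orange) and DPI 72 h (purple). Cdsn lies at -4.62 and -0.60 and Sprr1a at 3.10 and 1.64. Krt14, Krt16 and Krt19 lie left of 0 at 24 h and right of 0 at 72 h.

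The remaining keratins gave a wider view of the family. The table held 54 keratin genes, of which 28 had 0 counts in all 9 libraries, 14 had 1 to 9 counts in all and 7 were tested. Besides Krt8, Krt14 and Krt19 these were Krt10, Krt13, Krt16 and Krt80. Of these 4, 1 rose (Krt80) and 1 fell (Krt16) at 24 h against control, and 2 rose (Krt13 and Krt16) and 0 fell at 72 h against control. Their median log2 change was 0.29 at 24 h and 1.19 at 72 h, beside -0.006 and -0.005 over all genes.

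Krt16, a type I keratin known for its induction in wounded epidermis, moved the most of these 4. It had 0.734, 0.67 and 1.07 CPM in DPI 24 h cells, 10.9, 11.6 and 12.3 CPM in DPI 72 h cells, and 2.17, 2.10 and 1.98 CPM in controls. The 24 h libraries lay under, and the 72 h libraries over, all controls. Krt16 fell at 24 h (log2 change -1.32 ± 0.22, edgeR adjusted p = 0.00155), and rose at 72 h against control by 2.47 ± 0.19 (edgeR adjusted p = 1.62e-05). Its difference of 72 h against 24 h was 3.79 ± 0.21 (edgeR adjusted p = 7.88e-07), 13.9-fold.

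Krt13, a type I keratin of the lining of the mouth, averaged 0.809 ± 0.121 CPM in DPI 24 h cells, 2.54 ± 0.743 CPM in DPI 72 h cells and 0.583 ± 0.218 CPM in controls (SD, n = 3 each). It rose at 72 h against control by 2.12 ± 0.39 on the log2 scale (edgeR adjusted p = 0.00611). It also rose by 1.64 ± 0.38 at 72 h against 24 h (edgeR adjusted p = 0.0106), a call lost without DPI 72 h replicate 1 (log2 1.39, adjusted p = 0.0585, the highest of the alternatives, which began at 0.00193).

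Krt80, a type II keratin found in many epithelia, followed another course. It averaged 58.3 ± 2.19 CPM in DPI 24 h cells, 42.9 ± 0.898 CPM in DPI 72 h cells and 35.6 ± 3.38 CPM in controls (SD, n = 3 each). Krt80 rose at 24 h by 0.71 ± 0.08 (SE, edgeR adjusted p = 7.81e-05) and was at 0.27 ± 0.08 at 72 h against control (edgeR adjusted p = 0.055). Its 72 h level fell by 0.44 against 24 h (± 0.08 SE, edgeR adjusted p = 0.00194). Krt10, of differentiating keratinocytes, averaged 4.0 CPM in DPI 24 h cells, 3.32 CPM in DPI 72 h cells and 3.71 CPM in controls, and passed in no comparison.

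Summed per length, the 27 type I keratins came to 9.44 ± 0.734 RPKM in DPI 24 h cells, 33.7 ± 2.59 RPKM in DPI 72 h cells and 15.6 ± 3.0 RPKM in controls (SD, n = 3 each). Krt19 made up 67.8% of this sum in DPI 24 h cells, 65.1% in DPI 72 h cells and 75.7% in controls. The 26 type II keratins came to 10.2 ± 0.265 RPKM in DPI 24 h cells, 8.86 ± 0.0716 RPKM in DPI 72 h cells and 6.23 ± 0.661 RPKM in controls. Krt80 made up 89.3% of it in DPI 24 h cells, 75.8% in DPI 72 h cells and 89.4% in controls. The type I sum was therefore highest at 72 h and the type II sum highest at 24 h.

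**Figure D3:**
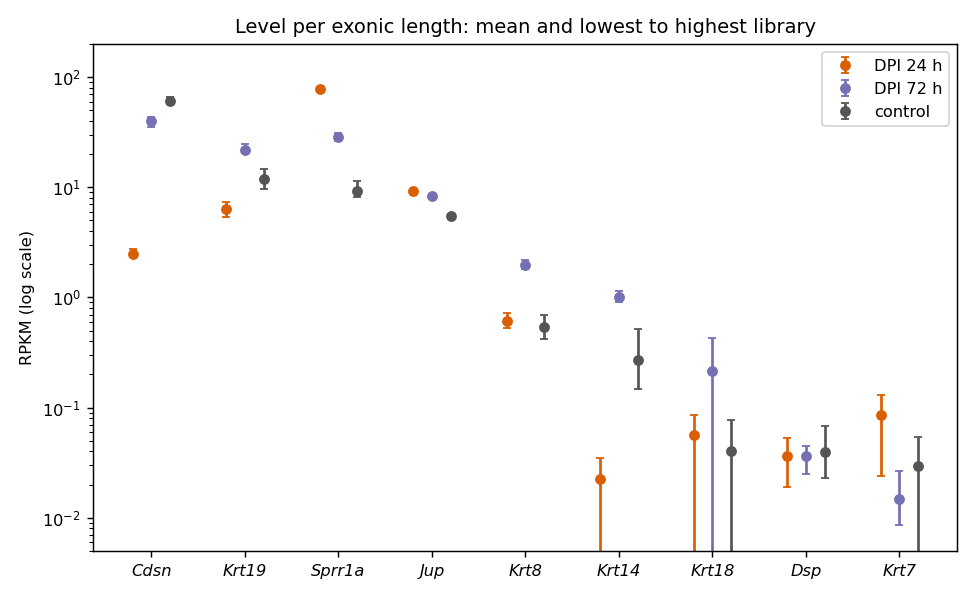
RPKM (CPM per kilobase of exons, log axis) of the 9 genes in DPI 24 h, DPI 72 h and control libraries, as mean (point) and lowest to highest library (bar). A bar that runs off the lower edge includes a library at 0. Sprr1a leads at 24 h, and Cdsn leads at 72 h and in controls.

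In RPKM the order of the 9 genes changed between groups. In DPI 24 h cells it ran Sprr1a (78.8), Jup (9.16), Krt19 (6.40), Cdsn (2.47) and Krt8 (0.617), with no overlap between neighbours. In DPI 72 h cells it ran Cdsn (40.2), Sprr1a (28.8), Krt19 (21.9), Jup (8.27), Krt8 (1.98) and Krt14 (1.01), also without overlap. In controls it ran Cdsn (60.9), Krt19 (11.8), Sprr1a (9.24), Jup (5.44), Krt8 (0.544) and Krt14 (0.272), where Krt19 overlapped Sprr1a and Krt8 overlapped Krt14. The genes not listed for a group averaged at most 0.214 RPKM there, and each overlapped its neighbour among them.

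The rest of the cornified envelope and epidermal differentiation list was mostly silent. Of its 51 genes, 21 had 0 counts in all 9 libraries, among them Lor and Flg, which encode the loricrin and filaggrin of the granular layer. Ivl, the involucrin gene, had 4 counts over all libraries. Beside Cdsn and Sprr1a, 6 genes were tested, of which Sprr2a1 passed the filter on low counts only through its 24 h libraries and is set apart. Of the other 5, 2 rose and 1 fell at 24 h against control, with a median log2 change of 0.54, and 1 rose and 0 fell at 72 h against control, with a median of -0.10.

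Sprr2a2, of the same small proline-rich family as Sprr1a, rose in both comparisons. It had 8.20, 6.46 and 6.99 CPM in DPI 24 h cells, 5.83, 4.02 and 3.48 CPM in DPI 72 h cells, and 1.51, 0.993 and 1.98 CPM in controls. All 6 treated libraries lay over all controls. The log2 change was 2.28 ± 0.28 (SE, edgeR adjusted p = 0.000215) at 24 h and 1.58 ± 0.28 (edgeR adjusted p = 0.00534) at 72 h. Sprr2a1 had 14, 12 and 19 counts in DPI 24 h cells, 0, 0 and 12 counts in DPI 72 h cells and 0 in all 3 controls. That made it at least 15-fold higher at 24 h, against a floor of 3 counts over the control group, while its 72 h counts came from 1 library and overlapped the controls. Sprr2a1 and Sprr2a2 are near-identical copies, and how reads were divided between them is uncertain.

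Ppl, the periplakin gene, rose at 24 h (log2 1.13 ± 0.29, edgeR adjusted p = 0.0174), and Sbsn, which encodes suprabasin, fell (log2 -0.74 ± 0.25, edgeR adjusted p = 0.0483). Sbsn lost its call when any of the 9 libraries was left out (adjusted p 0.0511 to 0.135). Ppl lost its call without control replicate 3 or DPI 24 h replicate 3 (0.0524 and 0.0702).

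Desmosome genes were read unevenly. Of 16, 6 had 0 counts in all libraries, including Dsg1a and Dsc1, cadherins of the upper epidermis, and Dsg2 and Dsc2, cadherins of simple epithelia, had 4 and 10 counts over all libraries. Besides Jup, 5 were tested, and at 72 h against control 1 rose and 0 fell (median log2 change 0.20). That gene was Pkp1, which encodes the desmosomal plaque protein plakophilin 1, with 53.4 ± 1.24 CPM in DPI 24 h cells, 97.9 ± 2.78 CPM in DPI 72 h cells and 62.9 ± 5.39 CPM in controls (SD, n = 3 each). Pkp1 rose by 0.64 ± 0.07 at 72 h against control (edgeR adjusted p = 0.000196) and by 0.87 ± 0.07 at 72 h against 24 h (edgeR adjusted p = 1e-05). At 24 h 1 rose, Pkp4 (log2 0.25, edgeR adjusted p = 0.0295), and 1 fell, Pkp1 (log2 -0.24, edgeR adjusted p = 0.0326), with a median of -0.09. Pkp4 lost its call without any DPI 24 h library (adjusted p 0.0798 to 0.091), and Pkp1 without control replicate 1 or 3, any DPI 24 h library or DPI 72 h replicate 3 (0.0535 to 0.104).

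Other intermediate filament and linker genes gave 5 higher and 0 lower of 12 tested at 24 h (median log2 change 0.21), and 3 higher and 0 lower at 72 h (median 0.31). The 3 that rose at 72 h were Vim, by 0.57 ± 0.07 (edgeR adjusted p = 0.000442), Lmna, a nuclear lamin gene, by 0.45 ± 0.06 (adjusted p = 0.000634), and Nes, the nestin gene, by 0.43 ± 0.08 (adjusted p = 0.00635). At 24 h Nes rose by 0.78 ± 0.08 (edgeR adjusted p = 5.38e-05) and Lmnb1 by 0.27 ± 0.06 (adjusted p = 0.00801), beside Ppl, Vim (0.24, adjusted p = 0.0286) and Lmna (0.24, adjusted p = 0.0125). Vim lost its 24 h call without control replicate 1 or 3 or any DPI 24 h library (adjusted p 0.0749 to 0.111), Lmna without control replicate 3 or DPI 24 h replicate 2 (0.0527 and 0.068), and Ppl as given above (0.0524 and 0.0702).

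The subunits of AP-1, the factor whose letters occur in the Sprr1a window, were measured as a list of 10 genes with 9 tested. At 24 h 4 rose and 1 fell (median log2 change 0.27), and at 72 h 3 rose and 0 fell (median 0.07). Among all genes, 12.4% rose and 12.3% fell at 24 h, and 4.73% rose and 3.83% fell at 72 h. Fosl1, which encodes the subunit Fra-1, had 56.9, 57.3 and 59.0 CPM in DPI 24 h cells, 54.8, 57.6 and 57.9 CPM in DPI 72 h cells, and 35.3, 34.3 and 34.5 CPM in controls. It rose by 0.73 ± 0.06 at 24 h (edgeR adjusted p = 8.84e-06) and by 0.71 ± 0.06 at 72 h (edgeR adjusted p = 2.66e-05). Jun rose by 0.57 ± 0.09 (adjusted p = 0.00209) and Fosl2 by 0.53 ± 0.09 (adjusted p = 0.00335) at 72 h, by edgeR.

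Atf3, a stress-induced partner in AP-1 dimers, fell at 24 h by 0.66 (± 0.11 SE, edgeR adjusted p = 0.00189). Fos (0.69, adjusted p = 0.0453), Fosl2 (0.28, adjusted p = 0.0397) and Junb (0.27, adjusted p = 0.0177) rose at 24 h. Fos lost that call without any library except control replicate 3 and DPI 72 h replicate 2 (0.058 to 0.138), Fosl2 without control replicate 3, any DPI 24 h library or DPI 72 h replicate 2 or 3 (0.0513 to 0.133), and Junb without control replicate 1 or 3 or DPI 24 h replicate 2 or 3 (0.0608 to 0.0914).

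**Figure D4:**
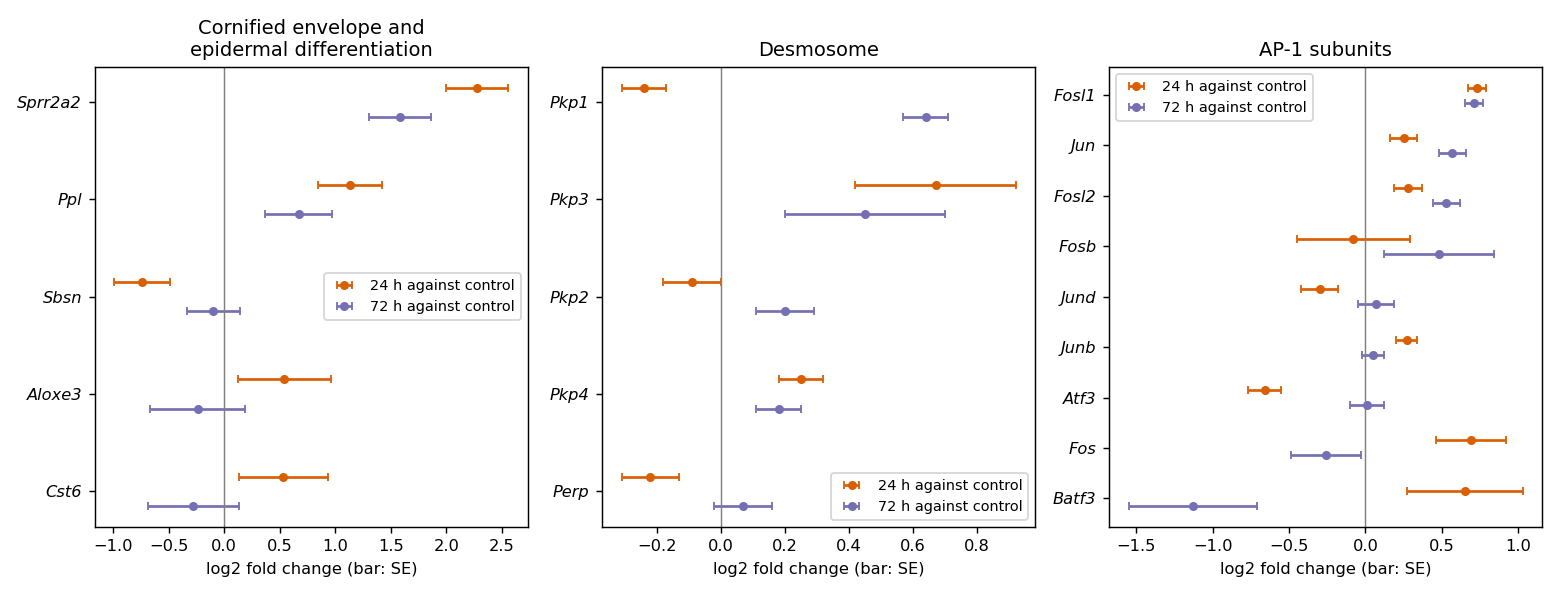
Log2 fold change against control (x axes, bars are SE) at DPI 24 h (orange) and DPI 72 h (purple) for tested genes of the cornified envelope list other than Cdsn, Sprr1a and Sprr2a1, of the desmosome list other than Jup, and of the AP-1 list. Sprr2a2 lies at 2.28 and 1.58, Pkp1 at -0.24 and 0.64 and Fosl1 at 0.73 and 0.71.

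Cytokines and receptors that signal through gp130 and STAT3, the pathway known to induce Sprr1a in heart muscle cells, formed a list of 13 genes with 10 tested. At 24 h 5 rose and 0 fell (median log2 change 0.27), and at 72 h 1 rose and 0 fell (median 0.12). The shares of all genes that rose were 12.4% at 24 h and 4.73% at 72 h. Lif rose at 24 h by 0.95 ± 0.08 (edgeR adjusted p = 1.41e-05), with a mean of 37.0 CPM in DPI 24 h cells, 21.1 CPM in DPI 72 h cells and 19.1 CPM in controls. Il6ra rose by 0.63 (adjusted p = 0.0115), Il6st, which encodes gp130, by 0.44 (adjusted p = 0.0196), Clcf1 by 0.28 (adjusted p = 0.023) and Stat3 by 0.25 (adjusted p = 0.0123) at 24 h, by edgeR. Clcf1, a ligand of this family, rose at 72 h by 0.46 ± 0.08 (edgeR adjusted p = 0.00407). The 24 h calls of Il6st (without DPI 24 h replicate 2 or 3, adjusted p 0.0632 and 0.0702), Stat3 (without DPI 24 h replicate 2, 0.0607) and Clcf1 (without control replicate 1 or DPI 24 h replicate 2 or 3, 0.0616 to 0.106) each depended on those libraries.

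Markers of other cell types were read beside these genes. Among 14 keratinocyte markers, Krt5 and Krt1 had 0 counts in every library and Dsg3 had 1 count in all. The summed level of that list ran from 59.5 to 63.2 CPM in DPI 24 h cells, 45.7 to 49.3 CPM in DPI 72 h cells and 36.7 to 45.6 CPM in controls. Krt14 is on this list. At 72 h against control 1 of the 6 other genes tested there rose, the laminin chain gene Lamb3 (log2 1.18 ± 0.25, edgeR adjusted p = 0.0124), and 0 fell. Lamb3 lost its call without DPI 72 h replicate 1 (adjusted p = 0.051).

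Among 22 epithelial markers, Epcam had 1 count over all libraries and Cldn3 and Ovol2 had 0. Their summed level ran from 77.6 to 81.6 CPM in DPI 24 h cells, 109 to 118 CPM in DPI 72 h cells and 72.7 to 76.6 CPM in controls. Of 4 tested, Cdh3, the P-cadherin gene, carried most of that sum and rose at 72 h by 0.62 ± 0.06 (edgeR adjusted p = 9.52e-05). No other gene of the list passed against control.

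Among 12 mesothelial markers, of which Krt7, Krt8, Krt18 and Krt19 are 4, Wt1, Upk1b and Bnc1 had 0 counts. The mesothelin gene Msln, by contrast, had 6250 to 9496 counts per library. Msln rose at 24 h by 0.33 ± 0.07 (edgeR adjusted p = 0.00668) and did not pass at 72 h against control (log2 -0.10, edgeR adjusted p = 0.475). The list summed to 541 to 594 CPM in DPI 24 h cells, 429 to 485 CPM in DPI 72 h cells and 432 to 504 CPM in controls. For the keratin changes, the part of the marker lists that moved with them was not tested.

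The fibroblast markers themselves rose, 11 of 13 tested at 24 h and 4 at 72 h, with 0 lower in both. Over all genes tested, 12.4% rose at 24 h and 4.73% at 72 h against control. Their summed level ran from 14300 to 14900 CPM in DPI 24 h cells, 12300 to 13700 CPM in DPI 72 h cells and 7670 to 9300 CPM in controls. Macrophage markers summed to at most 10.6 CPM and endothelial markers to at most 4.16 CPM in any library. Of 3 macrophage markers tested, Cd68 fell at 72 h (log2 -0.84, edgeR adjusted p = 0.0375), and the endothelial marker tested, Kdr, rose at 24 h (log2 0.98, edgeR adjusted p = 0.0338). Cd68 lost that call when any of the 9 libraries was left out (0.0557 to 0.128), and Kdr without any control or DPI 24 h library (0.0547 to 0.122). Kdr fell at 72 h against 24 h by 2.06 (± 0.32 SE, edgeR adjusted p = 0.00104).

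Within 100 kb of Cdsn (chr17:35552128-35557180, GRCm38) lay 13 genes, of which 6 were tested and 5 had 0 counts. Of these 1 fell at 24 h, Vars2, by 0.29 on the log2 scale (edgeR adjusted p = 0.018), and 0 passed at 72 h against control. Vars2 lost that call without DPI 24 h replicate 1 or 3 (0.0549 and 0.061). Psors1c2, the nearest gene below Cdsn, had 33 counts in DPI 24 h cells, 16 in DPI 72 h cells and 25 in controls, and passed in no comparison. Sprr1a (chr3:92483952-92485895, GRCm38) lay among 12 genes within 100 kb, of which 1 was tested and 4 had 0 counts. The tested gene, Gm9774, had 379 counts in DPI 24 h cells, 154 in DPI 72 h cells and 279 in controls. It passed in neither comparison against control (edgeR adjusted p = 0.337 at 24 h and 0.19 at 72 h) and fell at 72 h against 24 h by 1.22 (± 0.33 SE, edgeR adjusted p = 0.0214). Gm9774 lost that call without DPI 24 h replicate 2 or 3 or DPI 72 h replicate 1 or 3 (0.0523 to 0.099).

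Among the neighbours of the other members, Krt9, Krt15 and Krt87, which flank Krt14, Krt19 and Krt7, had 0, 4 and 21 counts over all libraries. Snrnp48, above Dsp, averaged 55.3 CPM in DPI 24 h cells, 58.3 CPM in DPI 72 h cells and 56.6 CPM in controls, and passed in no comparison. Eif4b, a translation factor gene above Krt18, averaged 857 CPM in DPI 24 h cells, 1050 CPM in DPI 72 h cells and 966 CPM in controls. It rose at 72 h against 24 h by 0.29 ± 0.05 (edgeR adjusted p = 0.00266) and fell at 24 h against control by 0.17 (edgeR adjusted p = 0.034). That fall was lost without control replicate 3, any DPI 24 h library or DPI 72 h replicate 2 or 3 (0.0511 to 0.112). Eif4b was at 0.12 at 72 h against control (adjusted p = 0.221, and 0.0465 without control replicate 2). The pseudogene Gm10039, below Jup, had 440 counts in DPI 24 h cells, 230 in DPI 72 h cells and 466 in controls and passed in no comparison by edgeR, except with no filter on low counts, where adjusted p was 0.0101 at 72 h against control and 0.0144 at 72 h against 24 h. Gm10129, annotated within Dsp on the opposite strand, had 1 count in all.

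The genes most like Cdsn in pattern, by Pearson's r of log2 CPM over the 9 libraries, were Eif3c (0.998), Cth (0.996) and Acot2 (0.996). Cth, an enzyme of cysteine synthesis, averaged 10.6 ± 0.308 CPM in DPI 24 h cells, 73.7 ± 3.62 CPM in DPI 72 h cells and 86.4 ± 4.64 CPM in controls. Acot2, a mitochondrial thioesterase, averaged 10.8 ± 0.798 CPM in DPI 24 h cells, 45.3 ± 4.6 CPM in DPI 72 h cells and 56.6 ± 6.31 CPM in controls. The translation factor gene Eif3c averaged 389 ± 10.5 CPM in DPI 24 h cells, 648 ± 6.65 CPM in DPI 72 h cells and 699 ± 17.2 CPM in controls (SD, n = 3 each). All 3 were lowest at 24 h and close to their control level at 72 h. The range of levels was far wider for Cdsn than for Eif3c, which r does not show.

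The genes most like Sprr1a were F2rl1 (0.993), Hmgcs1 (0.992) and Ap1m1 (0.991). F2rl1, which encodes a protease-activated receptor, averaged 61.5 ± 4.33 CPM in DPI 24 h cells, 34.5 ± 0.481 CPM in DPI 72 h cells and 16.2 ± 1.66 CPM in controls. Hmgcs1, of sterol synthesis, averaged 439 ± 9.49 CPM in DPI 24 h cells, 269 ± 7.13 CPM in DPI 72 h cells and 166 ± 3.32 CPM in controls. The adaptor subunit gene Ap1m1 averaged 103 ± 1.81 CPM in DPI 24 h cells, 94.5 ± 0.626 CPM in DPI 72 h cells and 86.3 ± 1.51 CPM in controls (SD, n = 3 each). All 3 were highest at 24 h and lowest in controls. These likenesses come from 9 libraries in 3 groups and describe an order of group means.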

How the data were processed

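RNA was extracted with a column kit and made into libraries sequenced on an Illumina instrument (per the labels' protocols). Tools named in the submitters' processing notes were Trim Galore, cutadapt, STAR, RSEM, limma, edgeR and GRCm38, without versions or roles. The annotation release and strand setting were not given in the sources used here, so overlapping and antisense genes cannot be separated, and near-identical copies (the Sprr2a genes, some keratins) are uncertain.

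The authors deposited raw counts, whole numbers per Ensembl gene, for 53465 genes in 9 libraries. A second deposited table, named as normalized, held counts equal to the first in all 159498 values and was not used. Symbols, exonic lengths and coordinates came from GENCODE (GRCm38), and promoter windows from RefSeq (GRCm38.p6). For 105 gene IDs, holding 0.009% of counts, no symbol was found.

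The filter on low counts was filterByExpr by group (14088 genes kept), and TMM factors were 0.984 to 1.024. A model of all 9 libraries, with a mean for each group, was fitted in edgeR 4.0.16 (R 4.3.3, glmQLFit and glmQLFTest, two-sided), with Benjamini-Hochberg adjustment over all genes tested and a threshold of 0.05. A standard error is the log2 change over the root of F. The fit was tested on simulated data. CPM are TMM-normalized, and RPKM divides them by exonic length. Groups of 3 allow no exact permutation p under 0.1. Intervals of count ratios are exact binomial and cover counting error only. Correlations used log2 CPM with a prior count of 2.

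The members and lists were chosen with earlier results of these data known. Named were all members, every other keratin tested, from each list the up to 4 genes with the smallest p at 72 h against control among those passing and any gene behind a count of 5 or fewer, the 3 genes most like Cdsn and Sprr1a with a mean of at least 1 CPM, and adjacent or overlapping genes. Some were left to counts. The cell type marker genes named, Vars2 and Gm9774 were chosen after their values were seen, and some marker results are not reported here. Alternatives were other scalings, no filter, DESeq2 1.42.0, limma 3.58.1 voom, only the 6 libraries compared, a replicate block, adjusted p under 0.01 and each library left out. The planned tests of Cdsn and Sprr1a at 72 h against control, and those of Krt14, are not given, because the controls or the filter favoured the outcome.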

Additional observations from a re-analysis of the deposited data

Results flagged for a closer look

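Among the keratins, the change against control differed between 72 h and 24 h by the test of 72 h against 24 h itself (edgeR adjusted p under 0.05) for 5 of 6 genes tested, where 21.3% of all genes passed. Krt14 is not counted among them. The log2 difference was 3.79 for Krt16, 1.78 for Krt19, 1.67 for Krt8 and 1.64 for Krt13. Krt80 went the other way, at -0.44. For Krt14 the fitted difference was 5.25, against 2 counts in the DPI 24 h group, so its size depends on the prior count, and the gene was fitted only because its 72 h libraries passed the filter. No causes were tested.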

How the results depend on the processing

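Krt8, Krt19 and Jup were tested at 72 h against control and against 24 h, 6 results with 102 alternative values. All 102 kept their direction and 101 their side of the threshold, the other being Jup at 72 h against 24 h without control replicate 2. The 12 results given without a test had 195 alternative values, which all kept their direction. Among the untested 24 h values, those that moved by more than the SD of log2 CPM between replicates were Krt14 (log2 -2.54 without control replicate 1) and Jup (0.70 with upper quartile scaling). Counts over all genes moved more. At 72 h against control they were 1206 in the full fit, 774 with the 6 libraries compared, 627 at adjusted p under 0.01 and 736 to 1965 with 1 library left out, highest without control replicate 2. At 24 h against control they were 3478, with 1904 at adjusted p under 0.01 and 2351 to 4419 with 1 library left out. For 72 h against 24 h they were 3001, with 4660 from the 6 libraries compared, 1590 at adjusted p under 0.01 and 1953 (without DPI 24 h replicate 3) to 4729 (without control replicate 2) with 1 left out. The planned counts of members called take in Cdsn, Sprr1a and Krt14, whose tests are not given, so nothing is concluded from these counts. In the full fit they were 5 at 72 h against control and 3 at 72 h against 24 h. Without control replicate 2 the count at 72 h against 24 h was 5. Leaving out control replicate 2 added Jup and Krt7 to the genes passing at 72 h against 24 h. Krt7 then passed the filter only through its 24 h libraries. The cause was not tested.

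Same-numbered libraries did not deviate together (r from -0.092 to 0.003 over 9 pairs), so the numbers were not taken to pair them. With the replicate block, 911 genes passed at 72 h against control and 3000 at 24 h against control. At 72 h against 24 h, 2533 genes passed with the block. With upper quartile scaling the median log2 change of all genes at 24 h against control was -0.053, beside -0.006 in the main fit. Depth limits Krt7, Krt18 and Dsp, where 3 counts correspond to 0.165 to 0.194 CPM.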
